A study of Mus musculus with 7 samples.

Results

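Muc13 was followed across hematopoietic progenitor states of mouse bone marrow. It was 1 of the 32285 genes in the deposited single-cell count tables, and was found there by its symbol and its identifier, ENSMUSG00000022824. Transcripts were counted in 7 libraries of LSK cells, which are bone marrow cells without lineage antigens that carry Sca-1 and cKit. Cells came from tibia and femur of mice of the strain 129S1/C57Bl/6: 3 libraries are labelled B4galt1 KO, with the genotype B4-/-, and 4 are labelled WT. The design calls the knockout full. Age and sex are not given in the sources used here. Nothing says how many animals went into a library or that the libraries are separate animals, so p-values measure only the spread between these libraries, which may be technical.

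Muc13 encodes a transmembrane mucin. Its extracellular part carries dense O-linked sugar chains and its short cytoplasmic tail faces the cell interior, and it is best known from the surface of gut epithelium. B4galt1 encodes a galactosyltransferase of the Golgi that adds galactose to growing sugar chains. Wnt signals act through beta-catenin and the DNA-binding TCF and LEF factors, and the title of the series joins glycosylation, Wnt and Muc13 to the megakaryocytic fate of hematopoietic stem cells. The comparisons below ask where among LSK cells Muc13 was counted and where its level differed by label.

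In the GENCODE vM21 annotation of GRCm38 (mm10, the build in the submitters' processing notes), Muc13 lies on the plus strand of chromosome 16, from 33794037 to 33819934. Transcript Muc13-202 starts at 33794037, has 13 exons and is 2969 bases long. Muc13-201 starts 330 bases further on, at 33794367, has 12 exons and is 2942 bases long. The transcripts share their start codon and end in the same last exon, which begins at 33818875, so 3′ counts do not part them. An antisense gene, Gm15657 (ENSMUSG00000090214), runs on the minus strand from 33770430 to 33796874. The spans of both genes overlap by 2838 bases, and their exons overlap from 33794392 to 33794575. Whether the counting used strand is not given in the sources used here, so counts from the shared stretch may belong to either gene. That stretch lies in the Muc13 exon with the start codon, not in the last exon. How many Muc13 counts came from it was not computed. Heg1 lies upstream of Muc13 and Itgb5 downstream, while B4galt1 lies on chromosome 4.

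The bases before each start are shown because the study links Muc13 to Wnt, and capitals mark matches to the TCF/LEF letters CTTTGA (reverse complement TCAAAG). Both windows are on the plus strand of GRCm38.p6. The first, chr16:33793787-33794036, precedes the start of Muc13-202 and is intergenic for Muc13, within an intron of Gm15657. The second, chr16:33794239-33794366, lies in intron 1 of Muc13-202 and precedes the start of Muc13-201.
Before Muc13-202: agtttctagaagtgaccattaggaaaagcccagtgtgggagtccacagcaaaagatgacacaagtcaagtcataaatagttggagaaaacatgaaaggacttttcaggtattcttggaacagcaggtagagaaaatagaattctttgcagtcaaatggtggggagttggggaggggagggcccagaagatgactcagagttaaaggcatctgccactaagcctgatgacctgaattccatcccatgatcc
Before Muc13-201: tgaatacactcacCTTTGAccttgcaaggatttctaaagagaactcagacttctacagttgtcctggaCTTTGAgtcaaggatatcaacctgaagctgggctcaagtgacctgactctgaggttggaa

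The window before Muc13-201 held 2 CTTTGA matches, at 33794252 to 33794257 and 33794307 to 33794312, which begin 115 and 60 bases before that start. The window before Muc13-202 held none on either strand. Among 32851 RefSeq promoter windows of 300 bases, 16.003% held at least 1 match and 1.73% held 2 or more. The GATA letters AGATAA (in 11.2% of those windows), the RUNX letters TGTGGT (16.8%) and the ETS letters AGGAAG (35.4%) matched neither Muc13 window on either strand. GC content was 44.8% and 44.5%, against a median of 52.7% over the promoters, with 0 CpG in both. A match is a description of letters, and nothing here measured binding.

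Depth and composition of the libraries frame every value that follows. A cell was kept with at least 1000 UMIs, at least 500 genes and at most 10% mitochondrial UMIs, which left 24430 cells, 1172 to 8862 per library, with a median of 8046 to 11083.5 UMIs. The libraries split by their barcodes: 480 openings of 6 bases in knockout replicate 3 and WT replicate 4 (called list B), and 900 to 958 openings in the other 5 (list A). The labels name one 10x 3′ v2 kit for all, and the source of the split is not given. Knockout replicate 3 and WT replicate 4 shared 88 barcodes, and other pairs 0 to 7. B4galt1 stood at 51.2, 55.6 and 27.4 CPM (counts of a gene scaled to all UMIs of the same cells) in the knockout-labelled libraries and at 56.4, 69.2, 56.7 and 34.8 in the wild-type ones, and edgeR put the log2 difference at -0.14 (adjusted p 0.537). Which exons were deleted is not stated, so 3′ counts check nothing about the label. Of the sort's defining genes, Kit was at 137 to 311 and Ly6a (Sca-1) at 16.6 to 48.2 CPM. Neutrophil markers reached 4186 and 4342 CPM in 1 library of each label, and the summed myeloid markers did not overlap between labels, at 2616 to 11430 (knockout) and 836.5 to 2222 (wild type).

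Muc13 was broadly counted. Of the kept cells, 13909 held at least 1 Muc13 UMI, with 38413 UMIs in all and at most 23 in 1 cell. Over all kept cells of a library it stood at 95.4, 120.4 and 221 CPM in the knockout-labelled libraries 1, 2 and 3. In the wild-type libraries 1 to 4 it stood at 104, 126, 90.0 and 109. Knockout replicate 3 was the highest of the 7, and the other 6 overlapped across labels. The means were 146 ± 66.4 (SD, n = 3) and 107 ± 14.8 (SD, n = 4), and an exact two-sided permutation test over libraries, with 35 possible assignments, gave p = 0.314. Since edgeR's quasi-likelihood test is the main test, with the barcode list as a term, its log2 fold change is the main estimate: 0.41 (SE 0.20, Benjamini-Hochberg adjusted p 0.294), where 1.11% of 14608 genes passed.

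Cells were sorted into 4 gates by marker genes. A cell belonged to a gate when at least 3 of its 10 listed markers had a UMI and no other gate did. The stem gate (Hlf, Mecom, Procr and others) held 8865 cells and the myeloid gate (Mpo, Elane, Csf1r and others) 1917. The lymphoid gate (Dntt, Flt3, Il7r, Rag1 and others) held 981 and the megakaryocytic gate (Pf4, Itga2b, Gp9 and others) 45. A further 11614 cells passed 2 or more gates and 1008 none. Muc13 is in none of the lists. Gates are ranges of marker counts, not types, and a deeply sequenced cell passes more of them.

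Muc13 was higher in the stem gate than in the myeloid and lymphoid gates, and the order of the latter 2 varied between libraries. In the stem gate it stood at 172, 207 and 259.9 CPM in the knockout-labelled libraries and at 156, 185, 116 and 126 in the wild-type ones. In the myeloid gate the values were 47.4, 77.8 and 176, and 48.5, 85.0, 47.1 and 93.2. In the lymphoid gate they were 111, 63.4 (18 cells) and 74.7, and 24.98, 27.4, 32.5 and 27.1. Each of the 7 libraries had less Muc13 in the myeloid than in the stem gate, and each of the 6 libraries with 20 lymphoid cells had less in the lymphoid gate than in the stem gate. The megakaryocytic gate was filled mainly in list B, with 400.1 CPM in the 24 cells of knockout replicate 3 and 325 in the 17 cells of WT replicate 4. Knockout replicate 1 had 4 such cells, at 341, and the other 4 libraries had 0, so no test was made for that gate.

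**Figure D1:**
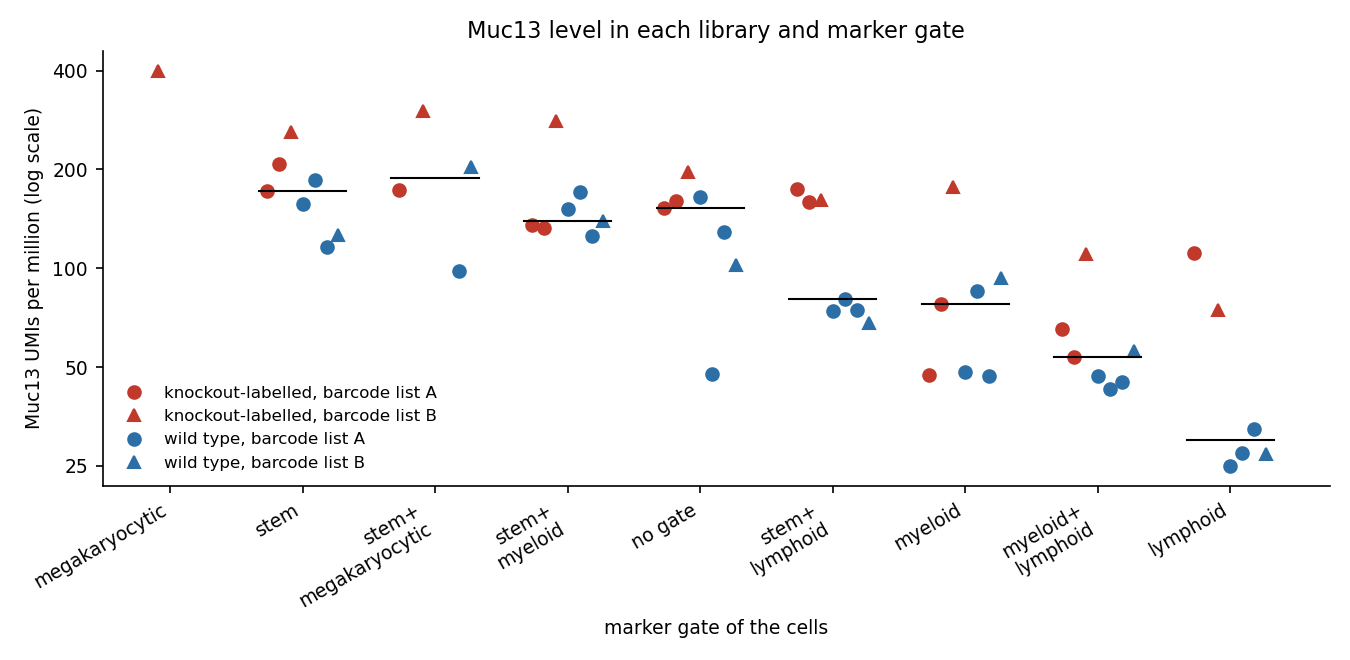
Muc13 CPM (log scale) in each marker gate and pair of gates, 1 point per library with at least 20 cells of the class (red: knockout-labelled, blue: wild type; circles: barcode list A, triangles: list B) and black bars at the median. The stem gate lies between 116 and 259.9 and the wild-type lymphoid points between 24.98 and 32.5.

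With the library as a block, edgeR's quasi-likelihood test put Muc13 in the myeloid gate 0.93 below the stem gate on the log2 scale (log2 fold change -0.93, SE 0.22, adjusted p 0.00197), where 61.1% of 11937 genes differed. The lymphoid gate lay further below the stem gate, with a log2 fold change of -1.97 (SE 0.28, adjusted p 0.00012), where 18.9% of genes differed. Lymphoid against myeloid was -1.03 (SE 0.29, adjusted p 0.0122), with 37.6% of genes called, and it lost the call in list A alone (-0.36, adjusted p 0.400), without knockout replicate 3 (-0.93, adjusted p 0.0644) or without WT replicate 4 (-0.72, adjusted p 0.0739). Exact sign-flip permutation over libraries gave p = 0.0156 for myeloid against stem and p = 0.0312 for lymphoid against stem (both 0.0469 after adjustment over 3 pairs, and both the smallest their designs allow). For lymphoid against myeloid the exact test gave p = 0.125, with the lymphoid gate lower in 5 of 6 libraries and higher in knockout replicate 1.

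Cells that passed a pair of gates filled in the order. Stem with megakaryocytic markers (875 cells) stood at 173 and 302 CPM in knockout replicates 1 and 3 and at 97.8 and 204 in WT replicates 3 and 4, the libraries with at least 20 such cells. That was 0.13 above the stem gate on the log2 scale (adjusted p 0.732, where 19.5% of genes differed), and the libraries differed. The pair was above the stem gate in knockout replicate 3 (302 against 259.9, 474 cells) and WT replicate 4 (204 against 126, 318 cells). It was level with the stem gate in knockout replicate 1 (173 against 172, 24 cells) and lower in WT replicate 3 (97.8 against 116, 25 cells). Whether Muc13 rises with megakaryocytic markers is thus not settled by this fit. Stem with myeloid markers (3441 cells) held 135, 133 and 281, and 151, 171, 125 and 139, with a log2 difference from the stem gate of -0.07 (adjusted p 0.792, where 37.1% differed). Stem with lymphoid markers (2218 cells) fell to -0.74 against the stem gate (SE 0.17, adjusted p 0.00199, where 11.1% differed). By library, the stem and lymphoid pair was lower than the stem gate in 6 of 7, the exception being knockout replicate 1 at 174 against 172 CPM. The stem and myeloid pair was lower in 4 of 7, among them knockout replicates 1 and 2.

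Finer states had wide spreads, and their medians come from different libraries. Ordered by median, the megakaryocytic gate (1 library) was followed by stem-gated cells with at least 3 cycle genes (median 186, range 125.5 to 270.01, 7 libraries) and cells with basophil and mast cell markers (158, 3 libraries). Cells with erythroid markers (153, 2 libraries) and stem-gated cells with no cycle gene (139.8, range 75.1 to 225, 7 libraries) came next, then T and NK markers (132, 2 libraries), endothelial markers (121, 1 library), granulocyte markers (99.6, 7 libraries) and the myeloid gate (77.8). Monocyte and dendritic markers (70.3, 7 libraries), neutrophil markers (68.2, 5 libraries), the lymphoid gate (29.9, 6 libraries) and B cell markers (21.1, 1 library) closed the order. Within shared libraries the order is not kept throughout: cells with erythroid markers were lower than stem-gated cells with no cycle gene in 2 of 2, and T and NK lower than endothelial in the 1 shared. The megakaryocytic value is that of knockout replicate 3, the library with the highest Muc13 over all kept cells. Of 8 neighbouring pairs tested by exact sign-flip permutation, none differed after adjustment (lowest adjusted p 0.125, for granulocyte above myeloid in 7 of 7 libraries). Within the stem gate, cells with cycle genes held more Muc13 than cells without in 7 of 7 libraries, by 0.35 ± 0.21 (SD) on the log2 scale (exact p = 0.0156, the smallest possible). Stem-gated cells with cycle genes also held more UMIs, with medians of 6400 to 10413 against 2771 to 5939.

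The share of cells with a Muc13 UMI rises with depth, so each cell was also thinned to 3000 UMIs, which left out 45 to 169 shallower cells per library. Before thinning, 61.8%, 56.1% and 74.5% of knockout-labelled cells and 47.2%, 49.7%, 45.2% and 46.1% of wild-type cells held a UMI. After thinning the shares were 29.1%, 30.1% and 44.6%, and 24.9%, 28.0%, 21.4% and 23.4%. The lowest knockout-labelled share exceeded the highest wild-type share. The exact permutation p was 0.0286, the smallest of 35 splits, and 0.1 when libraries were exchanged only within barcode lists. How many genes did so by share was not computed. By level over all kept cells 2.25% of genes did, and Muc13 itself overlapped. Most thinned cells, 55.4% to 78.6% per library, held 0 Muc13 UMIs and 0.334% to 1.70% held 4 or more.

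Across gates the thinned shares followed the level. Stem-gated cells held a UMI in 41.3%, 41.5% and 47.8% of knockout-labelled and 31.5%, 35.8%, 25.7% and 25.9% of wild-type cells, without overlap (exact permutation p = 0.0571, and 0.1 within barcode lists). In the lymphoid gate knockout replicates 1 and 3 had shares of 19.4% and 22.3%, and the wild-type libraries 7.89%, 7.69%, 7.25% and 7.05% (exact p = 0.0667, the smallest of 15 splits). In the stem and lymphoid pair they were 36.4%, 25.9% and 31.3% against 17.4%, 19.0%, 18.7% and 14.1% (exact p = 0.0286, the smallest of 35 splits, and 0.0543 after adjustment over 19 classes). Groups did not overlap in these 3 classes, whereas the myeloid gate overlapped, at 17.6%, 21.9% and 40.3% against 13.6%, 15.2%, 7.69% and 25.4%. The rate over all genes by thinned share was not computed. By level, 0.722% of genes were apart in this direction in the stem gate, where Muc13 overlapped. The rates by level were 3.93% in the lymphoid gate and 1.65% in the stem and lymphoid pair.

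Free RNA sets a floor under such shares. In WT replicate 4 the thinned share was 6.25% in 48 cells with B cell markers (median depth 15424 UMIs before thinning) and 17.6% in 187 cells with T and NK markers (median depth 10624), beside 7.05% in its lymphoid gate (median depth 7485). In that library the lymphoid share thus lay between both, and by the B cell marked cells it cannot be told apart from background. The other wild-type libraries had too few B, T or NK marked cells (at most 11 with T and NK markers) for such a comparison. In knockout replicate 3 the lymphoid share of 22.3% (median depth 8470) lay below the 38.0% of 79 cells with T and NK markers (median depth 13194). Those cells held 184 Muc13 CPM, beside 221 over all kept cells of that library. Whether they made Muc13 of their own was not tested, so they cannot serve as a floor. With no other comparison there, the lymphoid share was not told apart from background. In knockout replicate 1 it was 19.4%, beside 12.3% of 464 thinned cells with neutrophil markers. The neutrophil-marked shares were 4.55% of 22 thinned cells in WT replicate 1, 3.125% of 32 in WT replicate 3 and 26.2% of 42 in WT replicate 4. The lymphoid shares of those libraries were 7.89%, 7.25% and 7.05%. Whether neutrophil-marked cells made Muc13 of their own was not tested. How far free RNA enters the label differences below was not tested. Barcodes under the cell filter held 81.0, 141 and 270.4 Muc13 CPM in the knockout-labelled libraries and 126, 133, 80.0 and 98.0 in the wild-type ones.

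**Figure D2:**
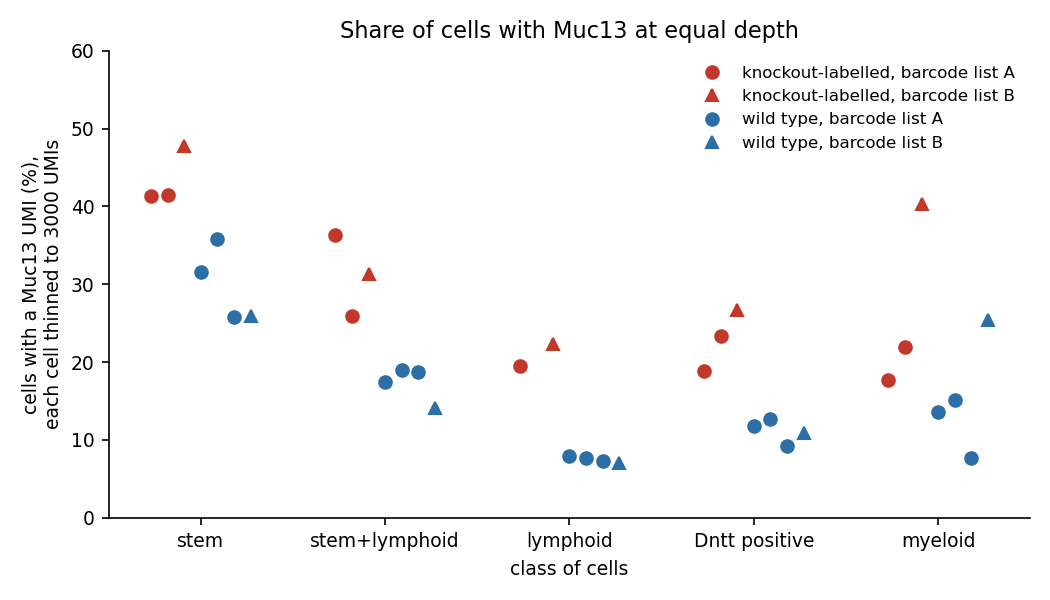
Share of cells with a Muc13 UMI (%) after thinning each cell to 3000 UMIs, by class of cells, 1 point per library with at least 20 thinned cells (red: knockout-labelled, blue: wild type; circles: list A, triangles: list B). Knockout-labelled points lie above wild-type points in the stem, the stem and lymphoid, the lymphoid and the Dntt positive classes and overlap them in the myeloid gate.

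By label, edgeR called Muc13 higher in knockout-labelled cells of the lymphoid gate, the stem and lymphoid pair and the Dntt positive classes. No difference passed in the stem gate, the myeloid gate or the myeloid and lymphoid pair. Over all cells with at least 3 lymphoid markers the ratio of mean CPM was 1.46, as in the stem gate. In cells with stem, myeloid and lymphoid markers it was 1.49. Over all cells with at least 3 stem markers it was 1.51, at 138 to 246 against 96.5 to 137 CPM. Labels did not overlap in any of these wider classes. For each, exact permutation gave p = 0.0286, 0.0776 after adjustment over 19 classes and 0.1 within barcode lists. The wider classes were not fitted by edgeR, and how many genes were apart in them was not computed. In the lymphoid gate the mean was 92.8 ± 25.6 CPM (SD, n = 2, knockout replicate 2 left out with 18 cells) against 28.0 ± 3.18 (SD, n = 4), without overlap (3.93% of genes in this direction). Shares in WT replicate 4 and knockout replicate 3 were not told apart from background here. The fold below therefore compares counts and is no ratio of expression. No background was set for the stem and lymphoid pair or the Dntt positive classes, so their folds carry the same limit. The counts behind the lymphoid fold are small, 30 and 88 UMIs in the knockout-labelled libraries and 10, 7, 25 and 149 in the wild-type ones. With the barcode list as a term, edgeR's quasi-likelihood test gave a log2 fold change of 1.64 (SE 0.26, adjusted p 0.0020, rank 2 of 8352 genes), where 0.132% of genes passed. Without that term the fold was 1.73 with an adjusted p of 1.00, and without knockout replicate 1 it was 1.43 with an adjusted p of 0.148. An exact permutation of the levels gave p = 0.0667, the smallest of 15 splits.

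The pair of stem and lymphoid gates gave the steadiest values. Muc13 stood at 174, 159 and 161 CPM in the knockout-labelled libraries and at 74.2, 80.7, 74.4 and 68.3 in the wild-type ones. The means were 165 ± 7.79 (SD, n = 3) and 74.4 ± 5.04 (SD, n = 4), and the ratio was 2.22, wider than the spread in either group. The groups did not overlap, which 1.65% of 10728 genes also showed in this direction. By edgeR the log2 fold change was 1.16 (SE 0.15, adjusted p 0.00105, rank 3 of 11395), where 0.167% of genes passed. It rested on the barcode list term too, with an adjusted p of 1.00 without it and a fold of 1.17. Exact permutation gave p = 0.0286, the smallest of 35 splits (adjusted 0.0776 over 19 classes), and 0.05 within barcode lists, the smallest of 20.

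In the stem gate the means were 213 ± 44.1 (SD, n = 3) and 146 ± 31.2 (SD, n = 4), and the groups overlapped. The estimate by edgeR was 0.55 on the log2 scale (SE 0.19, adjusted p 0.884), where 0.0166% of genes passed, and exact permutation gave p = 0.0857. In the myeloid gate it was 0.35 (SE 0.24, adjusted p 0.861, with 0.119% passing), and in cells of no gate 0.66 (SE 0.31, adjusted p 0.990, with 0% passing, 269 genes at an unadjusted p under 0.05, and 1 gene passing in DESeq2). Stem with megakaryocytic markers gave 0.62 (SE 0.19, adjusted p 0.0847, with 0.964% passing, 2 libraries per label), and all cells with at least 3 megakaryocytic markers gave 0.41 (SE 0.22, adjusted p 0.629, with 0.642% passing, 2 against 3 libraries). The latter passed without WT replicate 2 (0.70, adjusted p 0.00675). Stem with myeloid markers gave 0.24 (SE 0.21, adjusted p 0.931, with 0.103% passing) and myeloid with lymphoid markers 0.66 (SE 0.17, adjusted p 0.112, with 0.257% passing). A p that misses the threshold does not show that the levels were equal. In list A alone the stem and myeloid pair turned to -0.13.

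**Figure D3:**
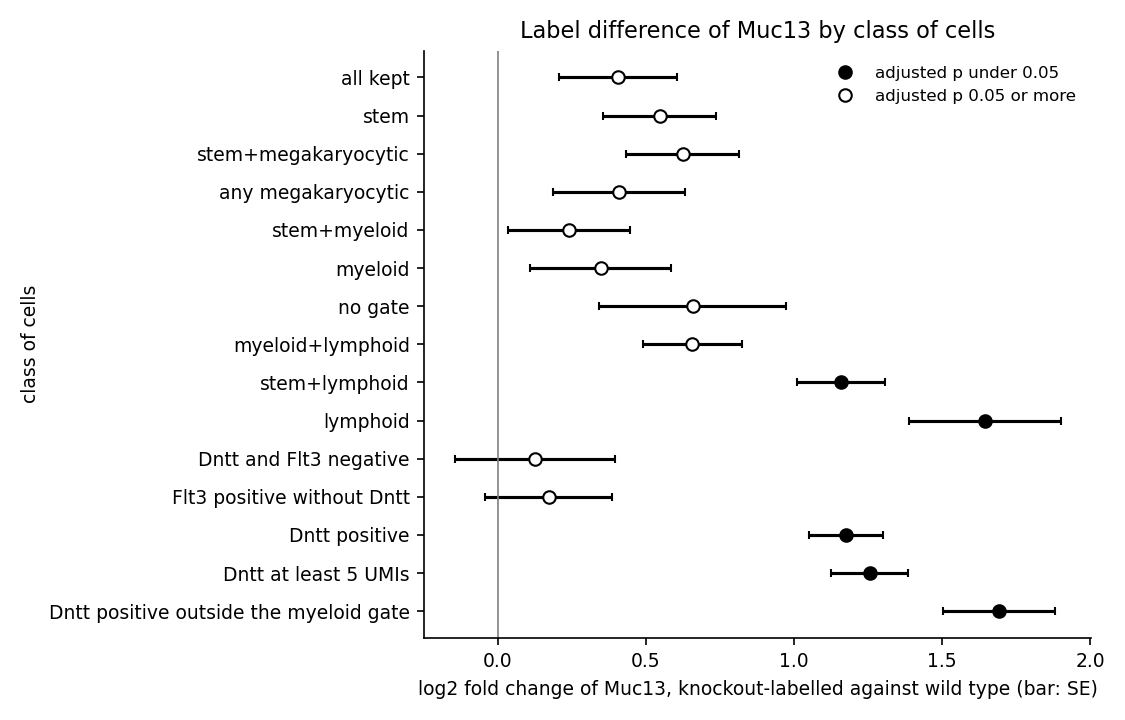
Log2 fold change of Muc13, knockout-labelled against wild type, in each class of cells from edgeR with the barcode list as a term (points: estimate, bars: SE; filled: adjusted p under 0.05). Stem and lymphoid (1.16), lymphoid (1.64) and the Dntt positive classes (1.18 to 1.69) are filled and the stem gate (0.55) is not.

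Because Dntt and Flt3 lead the lymphoid list, cells were also classed by these genes alone. Dntt encodes the DNA polymerase that adds bases at immunoglobulin and T cell receptor joints, and Flt3 a cytokine receptor of multipotent and lymphoid progenitors. In cells with 0 UMIs of both, Muc13 stood at 74.5, 147 and 269.8 CPM in the knockout-labelled libraries and at 133, 164, 118 and 146 in the wild-type ones. In cells with at least 2 Flt3 UMIs and no Dntt it stood at 108, 93.2 and 233, and at 122, 142, 110.2 and 119. In cells with at least 2 Dntt UMIs it stood at 101, 95.2 and 118, and at 42.4, 53.3, 38.0 and 53.2. Labels overlapped in the first 2 classes and were apart in Dntt positive cells, as 1.46% of 10406 genes were in this direction.

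**Figure D4:**
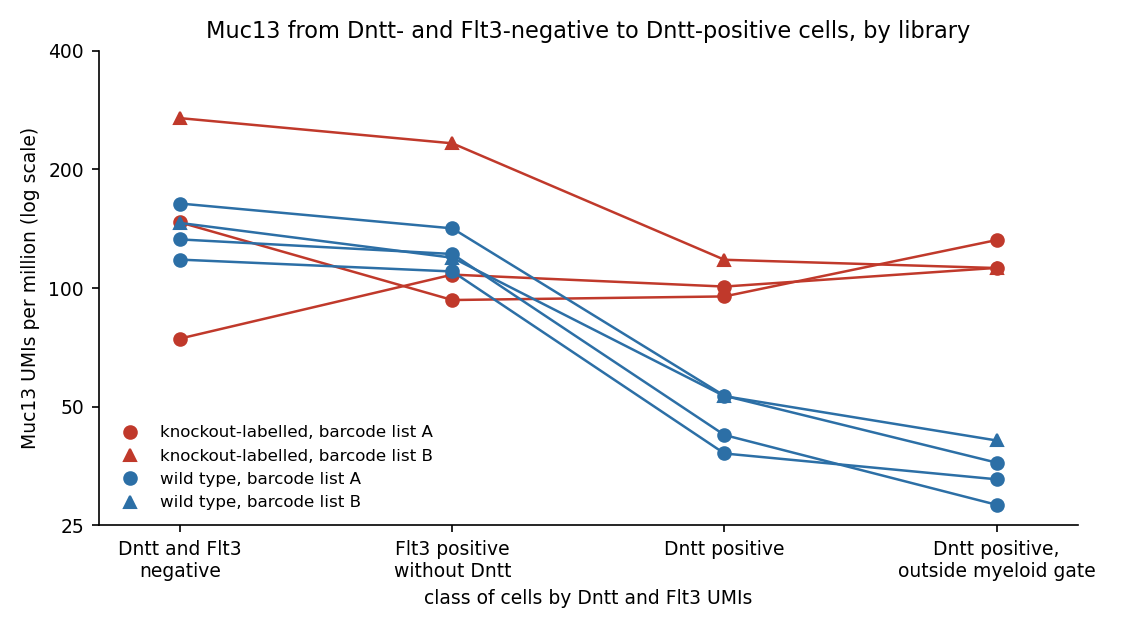
Muc13 CPM (log scale) along 4 classes of cells by Dntt and Flt3 UMIs, 1 line per library (red: knockout-labelled, blue: wild type; circles: list A, triangles: list B). Wild-type lines drop from 118 to 164 in Dntt- and Flt3-negative cells to 38.0 to 53.3 in Dntt positive cells, where the knockout-labelled lines lie at 95.2 to 118.

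Over all libraries Dntt positive cells held less Muc13 than Dntt- and Flt3-negative cells in edgeR (log2 fold change -1.05, SE 0.20, adjusted p 0.00082, where 37.4% of 12476 genes differed). Against Flt3 positive cells without Dntt it was -0.89 (SE 0.20, adjusted p 0.00678, where 15.4% differed; -0.82 with adjusted p 0.109 in list A alone). Flt3 positive against negative cells was -0.16 (adjusted p 0.667, where 14.5% differed). Dntt positive cells were lower in 6 of 7 libraries in both comparisons. The exceptions were knockout replicate 1 against negative cells (101 against 74.5 CPM) and knockout replicate 2 against Flt3 positive cells (95.2 against 93.2).

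In Dntt positive cells the label means were 105 ± 11.8 (SD, n = 3) and 46.7 ± 7.73 (SD, n = 4) CPM, a ratio of 2.24. Over libraries, exact permutation of these levels gave p = 0.0286, the smallest of 35 splits. That was 0.0776 after adjustment over 19 classes, and 0.05 within barcode lists, the smallest of 20. The estimate by edgeR was 1.18 on the log2 scale (SE 0.12, adjusted p 0.00064, rank 8 of 11599), where 0.595% of genes passed. It was 1.17 in list A alone (adjusted p 0.00693) and 1.22 without the list term (adjusted p 0.909). At a minimum of 5 Dntt UMIs it was 1.26 (SE 0.13, adjusted p 9.5e-05, with 0.512% passing). In Dntt- and Flt3-negative cells it was 0.12 (SE 0.27, adjusted p 0.843, with 0% passing, 1564 genes at an unadjusted p under 0.05, and 58 passing in DESeq2) and in Flt3 positive cells without Dntt 0.17 (SE 0.22, adjusted p 0.659, with 5.29% passing). In list A alone both turned below 0, to -0.22 and -0.21.

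Dntt positive cells of both labels differ in more than Muc13. Only 40 of 257, 45 of 182 and 312 of 1249 of them lay outside the myeloid gate in the knockout-labelled libraries, against 141 of 280, 131 of 247, 193 of 338 and 1113 of 2045 in wild type. Summed myeloid markers stood at 1860 to 1990 CPM against 658 to 1042, and summed lymphoid markers at 1676 to 1887 against 2018 to 2554. Mpo rose by label (log2 fold change 0.82, adjusted p 0.0224), as did Irf8 (1.10, adjusted p 0.00204), and Hlf fell (-0.72, adjusted p 0.0373).

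The myeloid-marked cells were therefore taken out. In Dntt positive cells outside the myeloid gate Muc13 stood at 113, 132 and 112 CPM in the knockout-labelled libraries, from 32, 40 and 352 UMIs. In the wild-type libraries it stood at 28.2, 36.1, 32.7 and 41.1. The difference was larger there, 119 ± 11.5 (SD, n = 3) against 34.5 ± 5.42 (SD, n = 4), without overlap (1.81% of 10568 genes in this direction). Over libraries, exact permutation of these levels gave p = 0.0286, the smallest of 35 splits. That was 0.0776 after adjustment over 19 classes, and 0.05 within barcode lists, the smallest of 20. The estimate by edgeR was 1.69 on the log2 scale (SE 0.19, adjusted p 1.2e-05, rank 1 of 10332), where 0.145% of genes passed. It was 1.91 in list A alone (adjusted p 0.00031) and 1.77 without the list term (adjusted p 1.00).

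Other values moved with that difference, and their part in it was not tested. Summed cycle genes were lower in the knockout-labelled Dntt positive cells outside the myeloid gate, at 1449 to 1736 against 2157 to 2476 CPM. Ly6a, which encodes the sorting antigen Sca-1, rose by 1.35 on the log2 scale (adjusted p 0.0205), at 59.8 to 96.0 against 15.1 to 37.5 CPM. Gm15657, the antisense gene that shares exon bases with the start-codon exon of Muc13, rose by 1.37 (adjusted p 0.00429), at 58.4 to 87.9 against 17.45 to 31.9. Dntt, Flt3, Il7r, Satb1 and the upstream neighbour Heg1 overlapped between labels in those cells, with Dntt at 860.3 to 1182 against 918 to 1102.

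Gm15657 also differed by label where Muc13 did not pass. Over all kept cells it stood at 80.1, 72.5 and 96.4 CPM in the knockout-labelled libraries and at 45.0, 52.9, 54.5 and 58.9 in the wild-type ones. The groups did not overlap, and the estimate by edgeR was 0.72 on the log2 scale (SE 0.12, adjusted p 0.0307). In the lymphoid gate, where both genes passed, it was 1.44 (adjusted p 0.0197), and in the stem gate, where neither did, 0.80 (adjusted p 0.0613). Of the coding neighbours, Itgb5 fell over all kept cells (-1.03, adjusted p 0.0449) and Heg1 overlapped between labels.

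Whether the label difference itself differed between classes was tested apart. Within each library, the ratio of Muc13 in Dntt positive to Dntt- and Flt3-negative cells was 1.35, 0.649 and 0.437 in the knockout-labelled libraries. In the wild-type libraries it was 0.319, 0.325, 0.322 and 0.364. Every knockout-labelled ratio lay above every wild-type one, by 1.11 on the log2 scale in the mean (exact permutation p = 0.0286, the smallest of 35 splits, adjusted 0.0429 over 3 pairs). Knockout replicate 1, the highest, also had the most myeloid marker counts in its Dntt- and Flt3-negative cells, 19160 CPM against 1941 to 5324 in wild type. Against Flt3 positive cells without Dntt the ratios were 0.933, 1.02 and 0.506, and 0.347, 0.376, 0.345 and 0.445, with a difference of 1.04 (exact p = 0.0286). With libraries exchanged only within barcode lists, both comparisons gave an exact permutation p of 0.05, the smallest of 20 splits.

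In edgeR over all genes the same interactions were 1.01 (SE 0.28, unadjusted p 0.00330, adjusted p 0.290) and 0.94 (SE 0.28, unadjusted p 0.00481, adjusted p 0.530), and 0% of 12476 genes passed in either (1559 and 1158 at an unadjusted p under 0.05). They passed when knockout replicate 3 was left out (1.41, adjusted p 0.00936, and 1.29, adjusted p 0.0452), and the first also in list A alone (1.46, adjusted p 0.0181). Between the lymphoid and stem gates the interaction was 0.87 (SE 0.54, adjusted p 1.00, with 0% passing and 255 genes at an unadjusted p under 0.05), and between the myeloid and stem gates -0.21 (SE 0.40, adjusted p 1.00, with 0.00838% passing). The label difference thus varied between Dntt positive cells and the other Dntt and Flt3 classes in the ratio test. In the test over all genes that variation missed the threshold, which does not show that the label difference was equal.

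Genes that went with Muc13 cell by cell were sought within each library, among 9415 genes counted in at least 5% of the kept cells of every library. The values are Pearson r of log2(counts per 10000 + 1) across cells of a library, which share its depth, and are given as a description. They were small: the highest median r was 0.28 and the lowest -0.26, and 1312 genes were positive and 240 negative in all 7 libraries. Dach1, a transcription cofactor, led with a median r of 0.28 (range 0.23 to 0.32), followed by Angpt1 (0.26), which encodes the Tie2 ligand angiopoietin-1, and Fut8 (0.24), the fucosyltransferase of N-glycan cores. Slc22a3 (0.24), an organic cation transporter, Gse1 (0.23), Dapp1 (0.22), the adhesion receptor Adgrg1 (0.22), Vamp5 (0.22), 4930519L02Rik (0.21) and the lipid transporter Spns2 (0.21) came next. Mdga1 (0.20), Csgalnact1 (0.20), which starts chondroitin sulfate chains, the transcription factors Sox6 (0.20) and Ikzf2 (0.19), and Apoe (0.19) completed the 15 highest.

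The 5 lowest were genes of lymphoid and dendritic or phagocyte programmes. Ighm, the immunoglobulin heavy chain, had a median r of -0.26 and Dntt -0.24. Ncf1, a subunit of the phagocyte oxidase, had -0.19, Il12a -0.18 and Irf8, a transcription factor of monocytes and dendritic cells, -0.18. Gm15657 had 0.17. After thinning to 3000 UMIs the median over the 15 highest fell from 0.22 to 0.10, and that over the 5 lowest moved from -0.19 to -0.11.

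**Figure D5:**
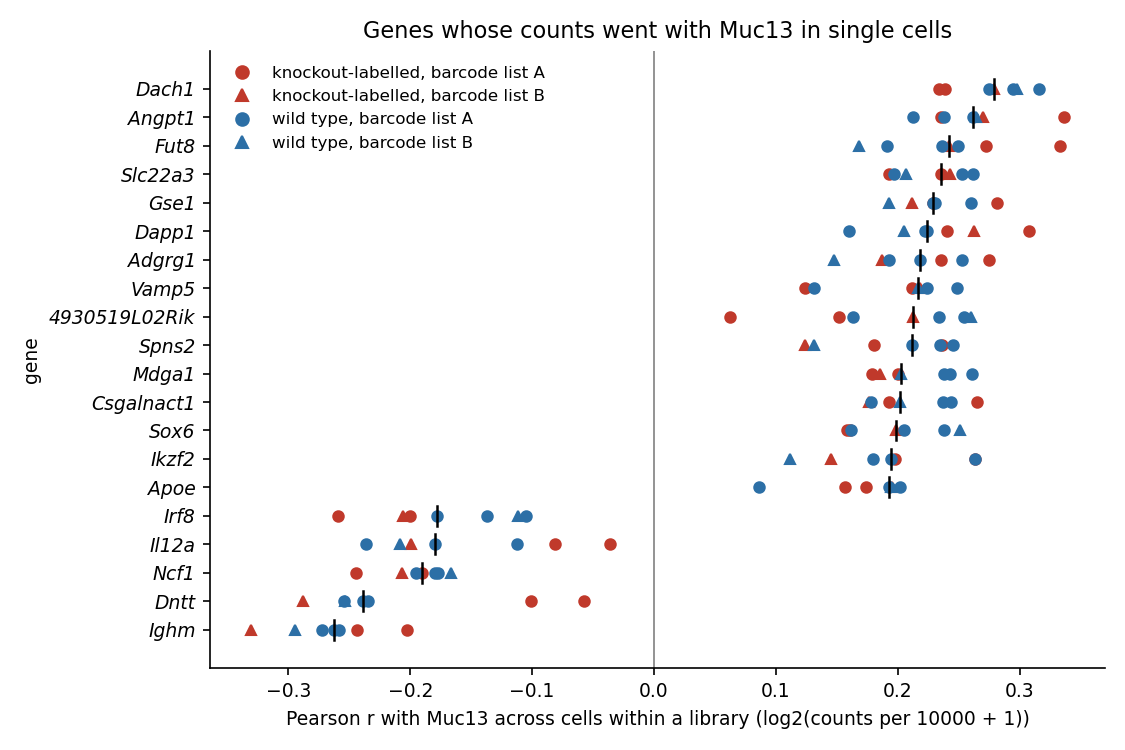
Pearson r of each named gene with Muc13 across the cells of a library, 1 point per library (red: knockout-labelled, blue: wild type; circles: list A, triangles: list B) and black bars at the median. All points of the 15 upper genes lie above 0, led by Dach1 at 0.28, and all points of the 5 lower genes lie below 0.

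In thinned cells the same genes can be read as shares. Dach1 was counted in 43.3% to 69.1% of cells with a Muc13 UMI and in 27.7% to 49.7% of cells without one, higher with Muc13 in 7 of 7 libraries. Dntt was counted in 6.29% to 11.6% of cells with and 9.24% to 26.0% of cells without a Muc13 UMI, lower with Muc13 in 7 of 7. In WT replicate 4, the largest library, Dach1 was in 44.6% against 27.7% and Dntt in 10.7% against 26.0%.

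Inside a gate the leading genes changed. In stem-gated cells (7 libraries) they were Slc22a3 (0.20), the cyclin-dependent kinase gene Cdk6 (0.17), Mpo (0.16), Dach1 (0.15) and the granule gene Nkg7 (0.15), while Hlf (-0.13) and Mecom (-0.10), markers that define the gate, were negative there and weakly positive over all kept cells (0.07 and 0.11). In myeloid-gated cells (5 libraries with at least 50 cells) Adgrg1 (0.37), Dapp1 (0.36), Angpt1 (0.36), Adgrl4 (0.35) and Etv6 (0.34) led. In cells with megakaryocytic markers (3 libraries) Cdk6 (0.27), Slc22a3 (0.25), Hmgb3 (0.21), Smim5 (0.19) and Lgals9 (0.19) led, and in lymphoid-gated cells (3 libraries) Gm15657 (0.27), Angpt1 (0.26), Mtmr3 (0.23), Mtap (0.23) and Klf7 (0.23).

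Over classes and states rather than cells, the pattern most like that of Muc13 was that of Gata2. Across 95 points (19 classes and states by library, log2 CPM centred within libraries, 10655 genes with a mean of at least 5 CPM) r was 0.86 for Gata2, Sox6, Sdsl and Gse1 and 0.85 for Dach1. Gata2 encodes a transcription factor of stem cells, mast cells and megakaryocyte progenitors. The points share cells between overlapping classes. Itga2b, the megakaryocyte and stem cell integrin, stood at 0.79 and Dntt at -0.60.

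Over all kept cells Muc13 had the highest CPM of the listed transmembrane mucins. Of 14 listed genes 11 are in the tables, and the order below compares CPM of 3′ tags, 1 per molecule whatever the transcript length. Cd164, a sialomucin of progenitors, stood at 46.8 to 80.3 and Emcn, a sialomucin of stem cells and endothelium, at 7.12 to 33.9 CPM, both below the 90.0 to 221 of Muc13. In wild-type lymphoid-gated cells Cd164 was the higher, at 53.6 to 78.3 against 24.98 to 32.5 for Muc13. Muc3a had 169 UMIs over all kept cells and Muc1 130, and Mcam (41), Muc3 (9), Muc16 (5), Muc20 (5), Muc4 (3) and Muc15 (1) had under 100 each. Muc12, Muc17 and Muc21 were not analysed here.

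Genes of the pathways around Muc13 were read from lists. Over all kept cells 0 of 20 tested genes of mucin-type O-glycosylation passed in edgeR (6 at an unadjusted p under 0.05), with a median log2 fold change of -0.13 beside 0.01 over all genes. Of 31 Wnt pathway genes 0 rose and 2 fell, the receptor Ror2 (-1.42, adjusted p 0.0414) and Tcf7l1 (-0.99, adjusted p 0.0391), with a median of -0.16. Of 10 Wnt target genes 1 fell, Ccnd1, the cyclin D1 gene (-1.01, adjusted p 0.0396), with a median of -0.23. Among 5 tested mucin partners Lgals1, a galectin that binds galactose ends, rose (1.57, adjusted p 0.0360), at 226 ± 35.9 (SD, n = 3) against 79.7 ± 41.1 (SD, n = 4) normalised CPM. The 1.11% of all genes that passed is the background of these counts.

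In Dntt positive cells 0 of 18 O-glycosylation genes, 0 of 26 Wnt pathway genes and 0 of 7 Wnt targets passed in edgeR (1, 3 and 2 at an unadjusted p under 0.05, beside 944 of all 11599 genes, of which 0.595% passed), while Lgals1 rose (1.55, adjusted p 0.0207). In stem-gated cells 0 of 18, 27 and 6 tested members passed (3, 1 and 2 at an unadjusted p under 0.05, beside 507 of all 12034 genes, of which 0.0166% passed). The class with most calls was Flt3 positive cells without Dntt, where Muc13 itself did not pass. There the sialyltransferases St6galnac2 (1.10) and St6galnac4 (0.67) rose and St3gal1 fell (-0.80), the mucin Emcn fell (-1.35), and 5 of 28 Wnt pathway genes fell, with Ror2 (-2.23), Tcf7l1 (-1.12) and Tcf7l2 (-0.79) leading by p. Those 676 calls over all genes are 5.29% of the genes tested.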

How the data were processed

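Single-cell RNA libraries (10x 3′ kit, per the labels) of sorted LSK cells, 3 labelled knockout and 4 wild type, were deposited as UMI counts per gene and barcode, which the authors made with Cell Ranger 7.0.0 against mm10, per the submitters' processing notes. Strand use in counting is not given in the sources used here. Library totals ran from 14970791 (WT replicate 2) to 89747946 UMIs (WT replicate 4), so shares and levels in classes of few cells are the least precise.

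Cells were kept at 1000 UMIs, 500 genes and 10% mitochondrial UMIs, and counts were summed per library and class of at least 20 cells. Sums were fitted over all genes with edgeR 4.0.16 (TMM, filterByExpr, quasi-likelihood test, Benjamini-Hochberg adjustment, threshold 0.05), with the barcode list as a term for labels and the library as a block for classes. Levels and shares were compared by exact two-sided permutation over libraries (numpy 2.4.6). A pseudocount of 1 CPM entered the log2 ratios between classes. Scripts were tested on simulated data: with the list term 60%, 54% and 48% of genes changed by 1 on the log2 scale were recovered (all kept, stem and Dntt positive cells), and without it 0%. Scrublet called 13 of 24430 cells (0.0532%), so it has not worked here, and doublets were kept; removing 1348 at an expected rate was an alternative.

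Besides Muc13, named genes were the 15 highest and 5 lowest median r of one sign in every library, the 5 highest in each gate, the 5 most alike over states, the listed mucins, and at most 3 called genes per list by p. Gene values given beside Muc13 (sort antigens, neighbours, class markers) come from the same lists. The gene, lists and rules were chosen with earlier results of these data known. Alternatives were the list term, size factors (DESeq2 1.42.0 too), gene and cell filters, marker minimum, thinning, doublets, the replicate block and leaving out each library. Added after seeing the data were the pairs of gates, the Dntt and Flt3 classes, list A alone, splits within lists, the block without the list term and correlations among cells with megakaryocytic markers.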

Additional observations from a re-analysis of the deposited data

Results flagged for a closer look

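Among all cells with at least 3 lymphoid markers, whatever other gate they passed, WT replicate 2 held 89.8 Muc13 CPM, apart from the other wild-type libraries, the next at 72.9. Its gap was 0.883 of the group's range, above the critical value of Dixon's test for 4 samples. It was 1 of 33 groups of 4 checked, and chance flags about 1 in 20.

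The label difference of Muc13 differed between Dntt positive cells and the other Dntt and Flt3 classes. The difference of log2 ratios was 1.11 against Dntt- and Flt3-negative cells and 1.04 against Flt3 positive cells without Dntt, each with an exact permutation p of 0.0286, the smallest of 35 splits. The edgeR interactions over all genes did not pass (adjusted p 0.290 and 0.530).

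Barcodes under the cell filter, which no comparison used, held Muc13 at a median of 126 CPM over libraries, from 80.0 in WT replicate 3 to 270.4 in knockout replicate 3.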

How the results depend on the processing

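Of 321 alternative values of the main answers 285 kept their direction and side of the threshold, 15 lost a call, 12 gained one, 5 moved and 4 turned. Some could not change, since the marker minimum does not enter all kept cells or the classes by Dntt and Flt3 alone. Others stayed short of the threshold in every setting, and some classes were added after seeing the data. The count is therefore no measure of robustness. For the values that changed, the cause was not tested. Without the barcode list term the label difference lost its call in the lymphoid gate (1.73), the stem and lymphoid pair (1.17), Dntt positive cells (1.22) and those outside the myeloid gate (1.77). The pair also lost it at 2 markers (1.02, adjusted p 0.0556). Cells of no gate gained it at 4 markers (0.82). In list A alone the estimate turned to -0.13 in the stem and myeloid pair, -0.22 in Dntt- and Flt3-negative cells and -0.21 in Flt3 positive cells without Dntt. Lymphoid against myeloid (-0.36) and Dntt positive against Flt3 positive cells (-0.82) lost their calls there.

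Leaving out 1 library at a time gave label differences of 0.12 to 0.57 (all kept), 0.34 to 0.70 (stem), 0.02 to 0.57 (myeloid), 1.43 to 1.92 (lymphoid), 1.12 to 1.2001 (stem and lymphoid), 1.12 to 1.25 (Dntt positive) and 1.56 to 1.93 (outside the myeloid gate). It gave -0.13 to 0.40 in the stem and myeloid pair, -0.21 to 0.44 in Dntt- and Flt3-negative cells and -0.21 to 0.40 in Flt3 positive cells. These 3 turned without knockout replicate 3 (-0.12, -0.20 and -0.20) and without WT replicate 4 (-0.13, -0.21 and -0.21). Lymphoid against myeloid ran from -1.39 to -0.72. Interactions ran from -0.63 to 0.13 (myeloid and stem; 0.00 without knockout replicate 1, 0.040 at 2 markers), 0.31 to 2.39 (lymphoid and myeloid), -0.16 to 0.27 (Flt3 positive and negative), 0.58 to 1.41 (Dntt positive and negative) and 0.74 to 1.29 (Dntt and Flt3 positive). The last 2 passed with no gene filter (0.97 and 0.93), and the first of them in list A (1.46).

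Replicate numbers 1 and 2 went together across labels (correlation of deviations 0.69 and 0.89 over 9163 genes, the highest for both knockout-labelled libraries), and number 3 did not (-0.53), which crosses barcode lists. Since not every pair did, the replicate block is a check only. With the block and the list term the estimates were -0.025 in the myeloid gate, -0.23 in the stem and myeloid pair, -0.33 in Dntt- and Flt3-negative cells, -0.27 in Flt3 positive cells and 1.94 in Dntt positive cells outside the myeloid gate. With the block and no list term calls were lost in the lymphoid gate (1.76), the stem and lymphoid pair (1.202) and Dntt positive cells (1.36), and 1.96 outside the myeloid gate kept its call.

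The label gap in the share of cells with a Muc13 UMI in the stem gate was 13.8 points after thinning and 10.8 with stricter filters, and lost its call. It gained one at 4 markers in the myeloid (17.9), lymphoid (18.4) and no-gate cells (17.4), and with gates on thinned cells in the lymphoid (22.3) and no-gate cells (14.1). Median r of the 15 highest genes was 0.10 after thinning and 0.18 without cells in 2 or more gates; that of the 5 lowest was -0.11 and -0.13, and -0.17 by Spearman. Genes called by label numbered 162 over all kept cells (0 without the list term, 547 with no gene filter, 362 in list A, 2277 with block and list, 16 to 349 leaving 1 library out) and 2 in the stem gate (0, 114, 12 and 96, and 2 to 12). Small classes limit depth, with 7 to 149 Muc13 UMIs per wild-type library in the lymphoid gate.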
